A study of Homo sapiens with 12 samples.

Results

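The genes described here are the expressed members of the ZNF series, human genes whose official symbol is ZNF followed by a number alone. Members were selected on their mean level alone: a gene was taken when this level over all 12 libraries was at least 2 FPKM (sequenced fragments of a gene scaled by transcript length and by library depth). The rule found 250 genes among 467 symbols of this form and 17197 symbols in all. Because the rule used the level, the level of a member is given as a description and never tested. The mean also covers the groups compared, so a member near the line can have entered through the groups where it was high. Over the 6 control siRNA libraries alone, 20 members had a mean under 2 FPKM; their higher levels with EP300 siRNA are given as a description, and counts are also given without them. The line fell between ZNF586 at 2.001 FPKM, ZNF417 at 2.03 and ZNF799 at 2.04 on the inside and ZNF57 at 1.97, ZNF549 at 1.96 and ZNF101 at 1.96 on the outside. All 250 members passed the filter on low counts and were tested.

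Most proteins of this series are built from C2H2 zinc fingers, small folds in which a pair of cysteines and a pair of histidines hold a zinc ion and the helix between them reads a short stretch of DNA. A large share also carries a KRAB box at the start of the protein, which binds the scaffold TRIM28 (also called KAP1); TRIM28 in turn brings the histone methyltransferase SETDB1 and heterochromatin proteins, and the site is silenced. KRAB genes arose largely by tandem duplication, lie in clusters on chromosome 19 and are known mainly as silencers of transposable elements. Others carry a SCAN box, through which such proteins pair with each other, and still others act as activators, as cofactors or on RNA and ribosomes.

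The cells were AC16, an established human line obtained by fusion of adult heart ventricle cells and transformed fibroblasts. All received an siRNA with the jetPRIME transfection reagent in medium without serum: the negative control siRNA (siNC) or one against EP300 (siEP300), a lysine acetyltransferase of histones and transcription factors. At 12 h after transfection the siNC.H2O2 and siEP300.H2O2 groups were exposed for 1 h to hydrogen peroxide at a labelled 200 mM, a unit that could not be checked, and RNA was taken after 48 h. Each of the 4 groups holds 3 libraries, numbered 1 to 3 (siNC), 4 to 6 (siEP300), 7 to 9 (siNC.H2O2) and 10 to 12 (siEP300.H2O2). The labels do not say that these came from separate cultures, so a p-value here measures only how these samples vary, possibly for technical reasons.

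A treatment field of the labels names siMLF1 where the titles name siEP300, so both genes were examined first. EP300 had 100.8, 69.1 and 80.1 CPM (counts scaled by library size and TMM factor) in siNC and 36.3, 36.8 and 36.7 in siEP300. With H2O2 it had 59.9, 80.4 and 89.9 in siNC.H2O2 and 30.1, 26.9 and 26.5 in siEP300.H2O2. The EP300 groups did not overlap, and EP300 fell to 43.9% without H2O2 (log2 fold change -1.19, SE 0.14, adjusted p = 3.6e-06) and to 36.3% with it (log2 fold change -1.46, SE 0.14, adjusted p = 5.85e-07). MLF1 also fell, by less: its log2 fold changes were -0.22 (adjusted p = 0.00519) and -0.29 (adjusted p = 0.000686). The siRNA sequences were not analysed here.

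Library totals ran from 16081437 to 19033679 estimated counts. Within groups, the leading axis of variation took 28.6% of the variance, and its gene loadings followed transcript length (Spearman 0.65) and GC content (-0.46). The control libraries siNC 1, at 17.6, and siNC.H2O2 7, at -13.9, lay at opposite ends of it, while siEP300.H2O2 10 (15.8) and siNC.H2O2 9 (12.1) lay near the first and siNC 2 (-11.4) and siEP300.H2O2 11 (-10.2) near the second. The members' median loading stood at percentile 59.6 of all genes tested, and at 60.8 for those with a KRAB box and 59.1 for those without. Counts of called members are therefore given without these 2 libraries as well. Of 18 cardiomyocyte genes, 6 were tested; the sarcomere genes MYH6, MYH7 and MYL2 were at 0.04 FPKM or less in every group, while the natriuretic peptide gene NPPB had group means of 90.8 to 128.9 FPKM. Summed FPKM of the cardiomyocyte list was 202.1 to 215.2 in siNC and 141.7 to 144.1 in siEP300, and with H2O2 it was 213 to 232.4 in siNC.H2O2 and 132.8 to 150.3 in siEP300.H2O2. Most of this sum came from NPPB and GJA1, whose means were 107.3 and 79.8 FPKM in siNC and 90.8 and 40.7 in siEP300. Summed FPKM of 7 endothelial genes, in the same order of groups, was 27.5 to 36.9, 8.88 to 10.2, 24.0 to 28.2 and 8.70 to 9.22. Most of it came from EGFL7, with a mean of 28.6 FPKM in siNC and 6.40 in siEP300, whereas TEK went the other way, from 0.98 to 2.19, and CDH5 was at 0.0133 or less in every group. The sum of 10 fibroblast genes was 3045 to 3082, 3268 to 3332, 3606 to 3693 and 2978 to 3150.4, and that of 5 epithelial genes 314.1 to 348.8, 279.2 to 284.5, 481 to 517.2 and 380.4 to 439.4. VIM and COL1A1 made most of the fibroblast sum, and that list went both ways with EP300 siRNA without H2O2. COL1A2, FN1, VIM and THY1 rose, DCN, LUM, PDGFRB and S100A4 fell, and COL1A1 and COL3A1 were not called. The 4 leukocyte genes in the tables summed to 26.2 to 32.9, 30.8 to 34.1, 38.4 to 39.5 and 49.0 to 56.6, with PTPRC at 0.12 or less in every group. Their part in the results below was not tested. In bulk RNA, fewer cells of a type and less RNA per cell cannot be told apart.

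Sequence features were read from GENCODE release 29 coding transcripts (GRCh38), to which all 250 members were matched, 1 of them by an older symbol. A KRAB box was called in 141 members by a profile score above 0, a line chosen after the scores were seen; 4 members scored narrowly below it and were counted as without it. Of the other 109 members, 9 had a SCAN box and 100 had neither box. The KRAB members held a median of 11 fingers and the members with neither box 7, with a range of 0 to 31 over all members. Chromosome 19 held 103 members (41.2%, against 7.37% of all genes tested) and 80 of the 141 KRAB members (56.7%). The KRAB members had lower GC in their transcripts, with a median of 43.0% against 51.9% for the members with neither box and 48.7% over all genes tested. They were also expressed at lower levels: the median of the mean FPKM was 3.78 for KRAB members, 7.29 for members with neither box and 11.2 for all genes tested. None of the 5 highest members had a KRAB box: ZNF593 at 73.3 FPKM, ZNF410 at 42.2, ZNF622 at 37.6, ZNF511 at 37.05 and ZNF330 at 36.0. ZNF593 and ZNF622 take part in maturation of the large ribosomal subunit.

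The first comparison asked how the members' transcripts differ when EP300 is reduced. Expressed ZNF genes were more often higher than lower with EP300 siRNA, and the KRAB members' counts were uneven in that direction. Without H2O2 those of the other members were near even, with 2 exceptions given below. On log2(FPKM + 1) more of them fell, and under the GC and length offsets more of them rose. The difference between these classes was not itself tested. Without H2O2, 124 of 250 members rose and 41 fell, whereas over all 13171 genes tested 30.1% rose and 31.4% fell (61.5% in either direction); the members' shares were 49.6% and 16.4%. Their median log2 fold change was 0.20, against -0.0042 over all genes tested. Among the 141 KRAB members 91 rose (64.5%) and 7 fell (4.96%), with a median of 0.34. Among the 109 members without a KRAB box 33 rose (30.3%) and 34 fell (31.2%), shares close to those of all genes tested, with a median of -0.01. Changes of at least 1.5-fold were made by 48 members upward and 12 downward, where 9.63% and 14.7% of all genes tested changed that much. KRAB members made 36 of the 48 and 3 of the 12. Counted here were also the 20 members under 2 FPKM in the control siRNA libraries, whose median log2 fold change was 0.76. No such count was made without them. Without siNC 1 and siNC.H2O2 7, an alternative added after the data were seen, 124 members rose and 38 fell, among them 89 and 6 KRAB members. Over all genes tested 32.2% rose and 32.9% fell in that fit. Of the 20 members under 2 FPKM in the control siRNA libraries, 17 were called higher and none lower. Without them 107 of 230 rose and 41 fell (median 0.18), among them 76 and 7 of 123 KRAB members (median 0.29). With the 2 FPKM line drawn on the control siRNA libraries in place of all 12, another alternative added after the data were seen, 107 of 235 ZNF symbols rose and 45 fell. This line takes in 5 symbols that the rule had left out, with a median log2 fold change of -1.07, likewise a description. Leaving out the 20 does not restore these 5, and no KRAB count was made on this line. On log2(FPKM + 1), from the values the authors normalised, 95 members rose (38%) and 50 fell (20%), against 25.3% and 36.2% of 12208 genes; among them were 71 and 9 KRAB members, and 24 and 41 without a KRAB box.

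The summed level of the KRAB members shows the same shift library by library. It was 2013, 1867 and 1921 CPM in siNC and 2461, 2521 and 2464 CPM in siEP300. The siNC.H2O2 libraries held 1869, 1892 and 1915 CPM, and the siEP300.H2O2 libraries 2679, 2557 and 2493 CPM. All 6 EP300 siRNA libraries lay above all 6 control siRNA libraries, with no overlap. These sums include the 18 KRAB members under 2 FPKM in the control siRNA libraries and were not made without them, so they are a description. The members without a KRAB box summed to 3769 to 4044 CPM in the control siRNA libraries and to 4023 to 4222 CPM in the EP300 siRNA libraries, ranges that overlapped through siNC 1 alone: its 4044 CPM lay within the upper range, and the other 5 control libraries, at 3769 to 3921 CPM, lay below all 6 EP300 siRNA libraries.

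**Figure D1:**
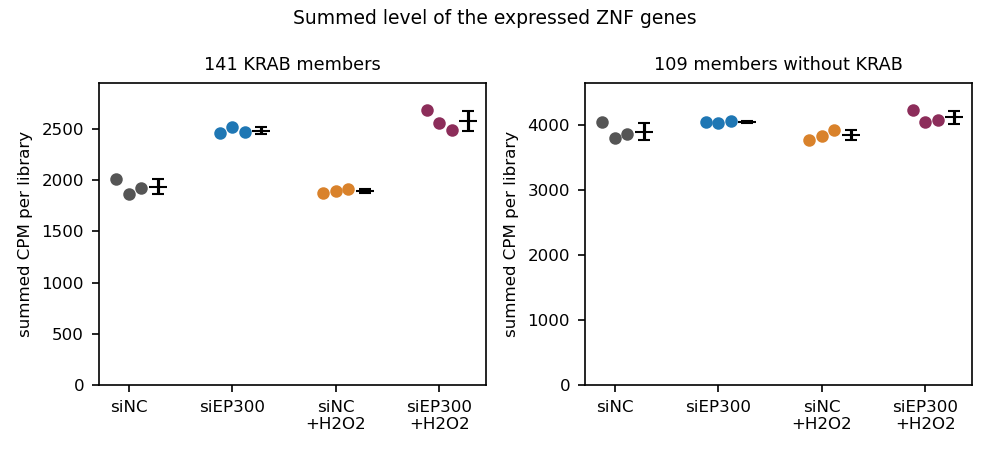
Summed CPM per library of the 141 KRAB members (left) and the 109 members without a KRAB box (right) in the 4 groups. Points are libraries, and the bar beside them is the mean with its SD over 3 libraries. The KRAB sums of the EP300 siRNA libraries (2461 to 2679) all lie above those of the control siRNA libraries (1867 to 2013). They include the 18 KRAB members under 2 FPKM in the control siRNA libraries.

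**Figure D2:**
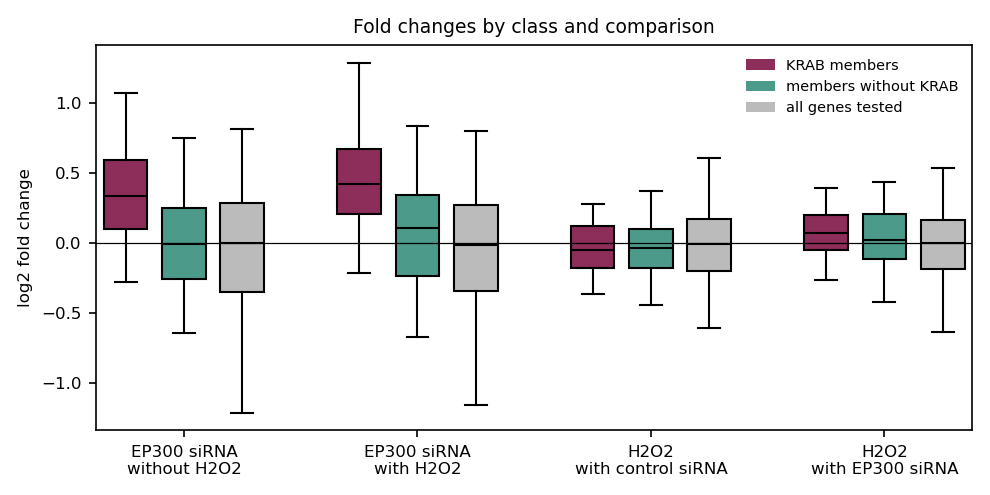
Log2 fold changes in the 4 two-group comparisons for KRAB members (141), members without KRAB (109) and all genes tested (13171). Boxes span the 25th to 75th percentile with the median as a line, and whiskers reach the 5th and 95th percentile. The KRAB boxes lie above 0 in both EP300 siRNA comparisons (medians 0.34 and 0.42) and around 0 in both H2O2 comparisons (-0.05 and 0.07). Without the 18 KRAB members under 2 FPKM in the control siRNA libraries, the EP300 siRNA medians were 0.29 and 0.39.

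ZNF765, a KRAB gene at chr19:53389793-53430413 (GRCh38, plus strand, 8 fingers), had the largest log2 fold change without H2O2. It had 4.96, 4.64 and 4.56 CPM in siNC and 15.3, 14.96 and 15.5 CPM in siEP300. With H2O2 it had 3.82, 3.83 and 4.01 CPM in siNC.H2O2, against 15.6, 11.9 and 13.2 CPM in siEP300.H2O2. Every EP300 siRNA library was far above every control library, and the fitted log2 fold change was 1.69 without H2O2 (SE 0.11) and 1.80 with it (SE 0.11). Its mean was 1.17 FPKM in siNC and 0.90 in siNC.H2O2, and 3.60 in siEP300 and 3.13 in siEP300.H2O2. ZNF765 thus passed the line of 2 FPKM only through the EP300 siRNA groups, and the difference is given as a description with no test. ZNF765 overlaps ZNF525 on the same strand and its estimated counts were not whole in 10 libraries, so reads may be shared with other genes.

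ZNF267, a KRAB gene with 14 fingers at chr16:31873758-31917357 (plus strand), had 11.2, 10.1 and 11.3 CPM in siNC and 33.7, 31.7 and 32.7 CPM in siEP300. It had 13.3, 13.3 and 15.2 CPM in siNC.H2O2, against 48.9, 40.9 and 41.8 CPM in siEP300.H2O2. None of the 4 groups overlapped, and siNC was lowest. Both siRNA contrasts passed (log2 fold change 1.59, adjusted p = 1.62e-09, and 1.66, adjusted p = 7.04e-10), and so did both H2O2 contrasts (0.36, adjusted p = 0.00915, and 0.42, adjusted p = 0.000902).

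ZNF721, a KRAB gene with 23 fingers at chr4:425815-499156 (minus strand), had 9.50, 8.28 and 8.91 CPM in siNC and 25.4, 26.0 and 23.7 CPM in siEP300. It had 7.54, 8.42 and 7.80 CPM in siNC.H2O2, against 29.6, 33.3 and 29.1 CPM in siEP300.H2O2, the largest log2 fold change of any member with H2O2. The EP300 siRNA libraries were again apart from all control libraries, with a log2 fold change of 1.49 (SE 0.09) without H2O2 and 1.95 (SE 0.09) with it. ZNF721 also has a mean under 2 FPKM in the control siRNA libraries, so these values carry no test. The difference between these effects was 0.46 on the log2 scale, likewise a description.

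ZNF680, a KRAB gene, rose with log2 fold changes of 1.35 (adjusted p = 9.57e-09) without H2O2 and 1.53 (adjusted p = 2.34e-09) with it. The KRAB gene ZNF468 had 1.23 FPKM in siNC and 1.41 in siNC.H2O2, against 3.24 in siEP300 and 3.38 in siEP300.H2O2. It too passed the line only through the EP300 siRNA groups, and its log2 fold changes of 1.47 and 1.28 are a description. ZNF468 overlaps ZNF28 and ZNF320 on its strand. ZNF254, another KRAB gene, rose by 1.18 without H2O2 (adjusted p = 1.19e-06) and by 1.39 with it (adjusted p = 3.17e-07). The members of this group are low in level, between 2.20 FPKM for ZNF765 and 8.47 FPKM for ZNF267.

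ZNF664 was the one member without a KRAB box among the 6 largest rises of both comparisons, and it is also far more abundant, at 27.4 FPKM. It had 68.9, 55.6 and 59.0 CPM in siNC and 156, 150.2 and 158 CPM in siEP300. It had 53.8, 50.6 and 59.9 CPM in siNC.H2O2, against 177, 161 and 164 CPM in siEP300.H2O2. The 6 EP300 siRNA libraries lay above the 6 controls (log2 fold change 1.34, SE 0.08, adjusted p = 3.17e-09 without H2O2, and log2 fold change 1.61, SE 0.08, adjusted p = 4.86e-10 with it). ZNF664 overlaps RFLNA on its strand and CCDC92 on the other, and the strand setting of the counting is not given in the sources used here.

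The largest fall belonged to ZNF428, a short member with a single finger match and no box, at chr19:43607219-43619874 (minus strand), the sixth highest member in level. It had 42.4, 53.7 and 51.9 CPM in siNC and 10.3, 8.33 and 8.94 CPM in siEP300. It had 53.6, 42.6 and 39.2 CPM in siNC.H2O2, against 13.7, 14.5 and 14.2 CPM in siEP300.H2O2. The groups of the 2 siRNAs did not overlap, and ZNF428 was left at 18.6% of its control level without H2O2 (log2 fold change -2.43, SE 0.13, adjusted p = 8.69e-10) and at 31.4% with it (log2 fold change -1.67, SE 0.12, adjusted p = 2.45e-08). SRRM5 overlaps ZNF428 on the opposite strand, and the estimated counts of ZNF428 were not whole in 11 libraries.

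ZNF395, known as a factor induced by low oxygen, was lower after both agents. It had 73.3, 69.8 and 73.3 CPM in siNC and 51.6, 52.6 and 54.7 CPM in siNC.H2O2, then with EP300 siRNA 40.4, 42.0 and 40.2 CPM in siEP300 and 26.4, 23.0 and 25.3 CPM in siEP300.H2O2. No group overlapped another. EP300 siRNA changed it by -0.82 (adjusted p = 2.52e-08) without H2O2 and -1.09 (adjusted p = 2.16e-09) with it, and H2O2 changed it by -0.45 (adjusted p = 3.87e-05) with control siRNA and -0.71 (adjusted p = 1.14e-06) with EP300 siRNA. ZNF395 overlaps FBXO16 on its strand.

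The 4 genes that follow completed the 6 largest falls without H2O2. ZNF74 is a KRAB gene and changed by -1.03 (adjusted p = 8.04e-08), and ZNF2, also a KRAB gene, changed by -0.85 (adjusted p = 9.48e-06). ZNF653 changed by -0.87 (adjusted p = 7.89e-05) and ZNF275 by -0.81 (adjusted p = 1.62e-05), and neither has a KRAB box. With H2O2 the 6 largest falls were ZNF428, ZNF395, ZNF653 at -1.002 (adjusted p = 2.81e-05), ZNF511 at -0.76 (adjusted p = 0.0001), ZNF362 at -0.75 (adjusted p = 6.85e-07) and the SCAN gene ZNF449 at -0.70 (adjusted p = 0.000228). None of these 6 has a KRAB box. ZNF653 overlaps ECSIT on its strand and ZNF511 overlaps TUBGCP2 on the other.

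**Figure D3:**
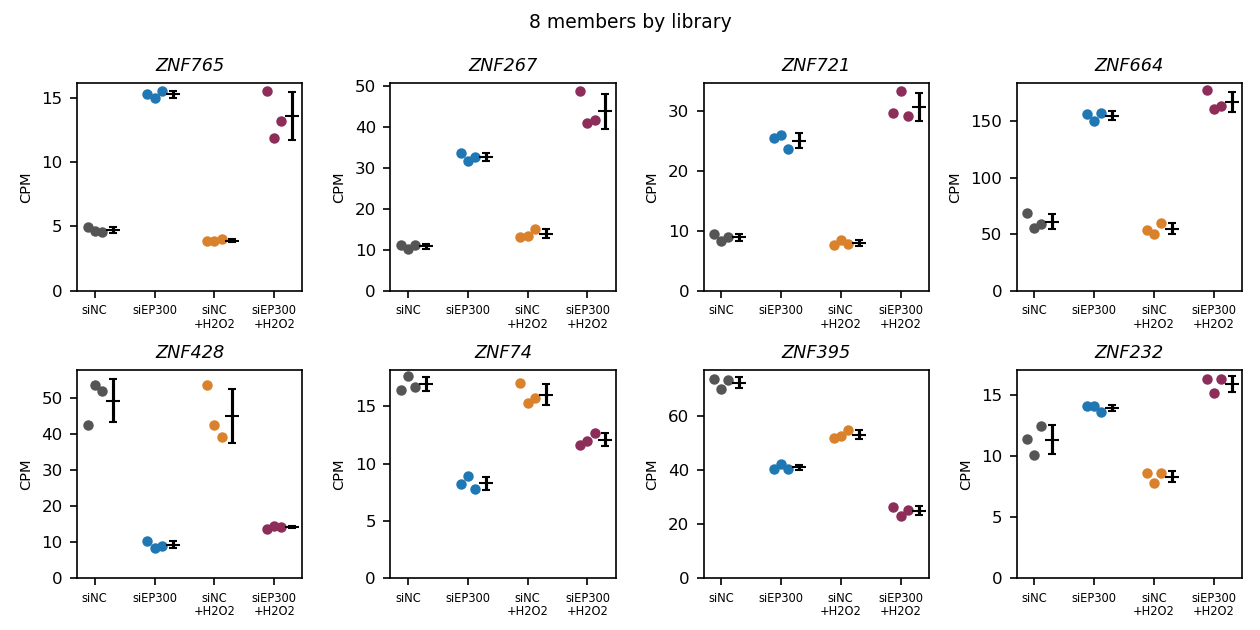
CPM of 8 members in each library by group, with the mean and SD over 3 libraries beside the points. ZNF765, ZNF267, ZNF721 and ZNF664 are higher in every EP300 siRNA library than in every control siRNA library, ZNF428, ZNF74 and ZNF395 are lower, and ZNF232 stands highest in siEP300.H2O2 and lowest in siNC.H2O2.

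With H2O2 present, EP300 siRNA gave a like picture, measured in 6 other libraries. Here 134 members rose (53.6%) and 38 fell (15.2%), against 28.4% and 30.6% of all genes tested (59% in either direction), and the median was 0.28 against -0.02. Of the KRAB members 95 rose and 6 fell, with a median of 0.42; without siEP300.H2O2 11 the 6 became 3. Of the members without a KRAB box 39 rose and 32 fell, with a median of 0.10. At least 1.5-fold changes were made by 58 members upward and 7 downward (8.94% and 14% of all genes tested), of which 43 and 0 were KRAB members. Counted here were also the 20 members under 2 FPKM in the control siRNA libraries, with a median of 0.76. No such count was made without them. Without siNC 1 and siNC.H2O2 7 the counts were 137 higher and 38 lower, among them 97 and 5 KRAB members. Over all genes tested 28.7% rose and 30.9% fell in that fit. No calls are given for the 20 members under 2 FPKM in the control siRNA libraries, because the rule bore on their direction. Without these 20, 116 of 230 members rose and 38 fell (median 0.25), among them 79 and 6 of 123 KRAB members (median 0.39). With the line drawn on the control siRNA libraries, 116 of 235 ZNF symbols rose and 42 fell (median 0.23). The 5 symbols that this line takes in had a median of -0.81, a description.

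These comparisons share no library, so their values can be set against each other. Across the 250 members, which are not independent replicates, the 2 sets of log2 fold changes had a Spearman correlation of 0.92 and a Pearson correlation of 0.93; over all 13171 genes tested these were 0.87 and 0.85. Of the 124 members that rose without H2O2, 113 rose with it, and of the 41 that fell, 30 fell with it. Among KRAB members 85 rose in both states. Only ZNF23, a KRAB gene named here after its values were seen, was called in opposite directions, at 0.22 without H2O2 (adjusted p = 0.0312) and -0.22 with it (adjusted p = 0.0307), and its interaction was -0.45 (adjusted p = 0.0532).

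**Figure D4:**
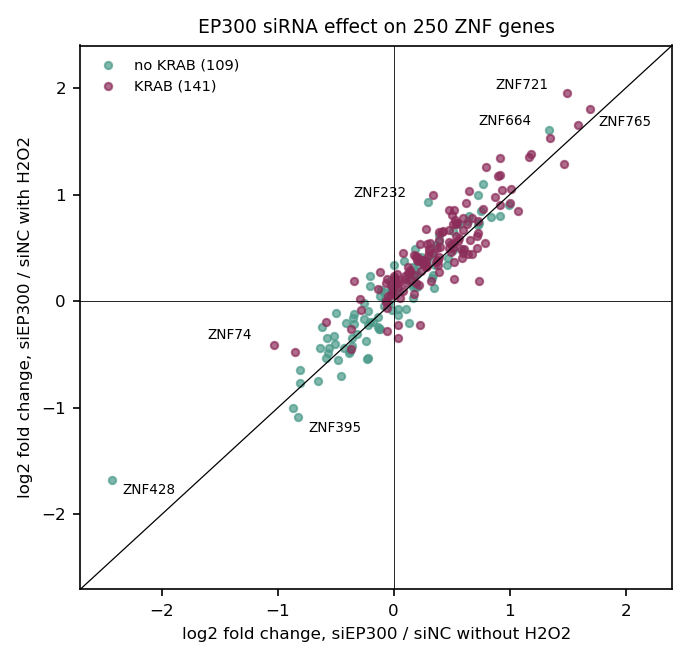
Log2 fold change of EP300 siRNA over control siRNA for 250 members, without H2O2 on the horizontal axis and with H2O2 on the vertical axis, with the line of equal values. Most KRAB members (141) lie in the upper right and close to the line, and ZNF428 lies alone at the lower left.

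The KRAB members were also counted by number of fingers, position and level, as a description. Of 89 KRAB members with at least 10 fingers, 65 rose and 4 fell without H2O2 (median 0.42), and of 52 with fewer, 26 rose and 3 fell (median 0.21). On chromosome 19, 54 of 80 KRAB members rose and 4 fell (median 0.38), and elsewhere 37 of 61 rose and 3 fell (median 0.24). KRAB members at 5 FPKM or more rose in 35 of 49 cases and those at 2 to 5 FPKM in 56 of 92. These splits include the 18 KRAB members under 2 FPKM in the control siRNA libraries, whose median was 0.68. None of the splits was made without them. Below the line of the rule, 93 ZNF symbols had 1 to 2 FPKM, and 49 of them rose and 12 fell without H2O2. Among members without a KRAB box, 13 of 33 with at least 10 fingers rose (39.4%) and 10 fell (30.3%), against 30.1% and 31.4% of all genes tested.

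Base composition moved with the result. Across the 250 members the log2 fold change without H2O2 had a Spearman correlation of -0.43 with transcript GC and 0.32 with the number of fingers, and the correlation with GC over all genes tested was -0.36. Members were therefore split into tertiles of GC. In the lowest tertile 45 of 61 KRAB members rose and 1 fell, against 10 and 5 of 23 members without the box. In the middle tertile the counts were 38 and 3 of 58 KRAB members and 12 and 6 of 24 others. In the highest tertile they were 8 and 3 of 22 KRAB members and 11 and 23 of 62 others. Over all genes tested 30.1% rose and 31.4% fell, and these were not split by GC. Whether KRAB members differ from other genes of like GC was therefore not tested. The counts in this paragraph include the 18 KRAB members under 2 FPKM in the control siRNA libraries. When GC and transcript length were modelled as offsets in the fit, 131 members rose (52.4%) and 39 fell (15.6%) without H2O2, against 34.8% and 30.3% of 13107 genes, among them 80 and 8 KRAB members, and the median over KRAB members was 0.28 against 0.17 for the others. With H2O2 that fit called 159 higher (63.6%) and 33 lower (13.2%), against 34.4% and 29.8%, with medians of 0.38 and 0.21. Under those offsets the counts among members without a KRAB box moved from 33 higher and 34 lower to 51 and 31 without H2O2, and from 39 and 32 to 58 and 25 with it, so they were no longer near even.

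**Figure D5:**
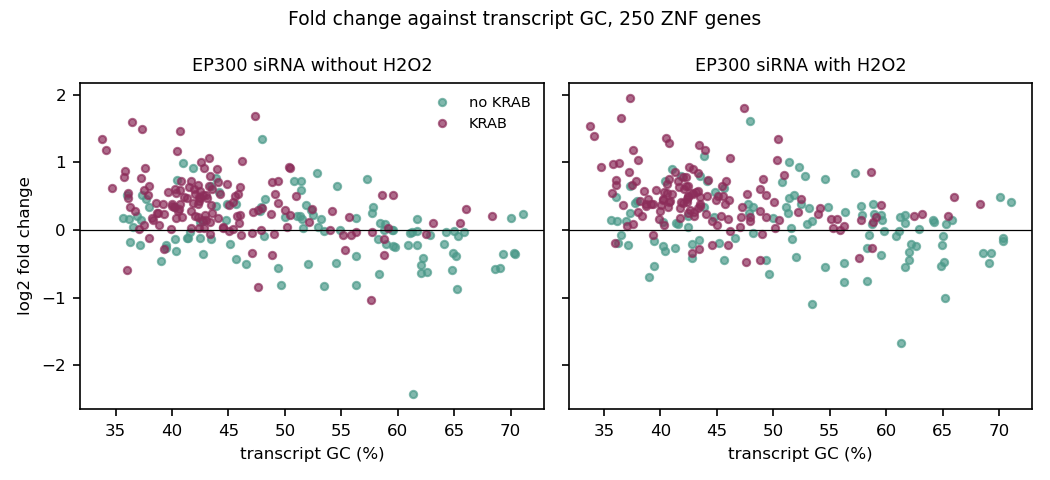
Log2 fold change of EP300 siRNA over control siRNA against the GC percentage of the member's transcript, without H2O2 (left) and with H2O2 (right), with KRAB members and other members in separate colours. Values decline toward high GC (Spearman -0.43 and -0.38 over 250 members), and KRAB members gather at low GC and above 0.

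Tandem neighbours did not all move alike. Members within 500 kb of the next were joined into 13 clusters of at least 5. In the largest, chr19:57191500-58481230 with 22 members (20 KRAB), 13 rose and 3 fell without H2O2 (median 0.30). In chr19:43596392-44500524, 11 of 16 rose and 2 fell, with log2 fold changes from -2.43 (ZNF428) to 1.17. In chr19:51571298-53580269, where all 14 members have a KRAB box, 8 rose and none fell, up to 1.69 for ZNF765. Among these 14, ZNF468, ZNF613, ZNF649 and ZNF765 were under 2 FPKM in the control siRNA libraries. So were ZNF17, ZNF417 and ZNF586 of the largest cluster and ZNF112 and ZNF234 of chr19:43596392-44500524. No cluster count was made without such members, so these counts are a description. All 5 members of chr7:64519884-65401135 rose in both states (medians 0.65 and 0.98), among them ZNF680. By contrast, chr19:55476332-56626481 holds 10 members of which 1 has a KRAB box, and 1 rose and 4 fell (median -0.28). Another KRAB cluster, chr7:149126416-149497817, had 1 rise and no fall among 5 members (median -0.0043). Neighbours of a cluster can share reads where their copies are near-identical, so they are not independent.

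Promoters were compared because so many KRAB members moved together. RefSeq promoters (GRCh38.p14) were matched for 214 of 250 members, 121 of them KRAB, and the 250 bases before the start were searched on both strands for spelled motifs. The ETS-type motif CCGGAAG was in 40.5% of KRAB members, 28% of the other members, 15.8% of all genes tested and 8.82% of all promoters in the table. The CCAAT box was in 51.2%, 33.3%, 35% and 33%, and the SP and KLF box GGGCGG in 56.2%, 69.9%, 67.1% and 42.3%. The ETS-type motif was in 35% of all members, in 35.8% of the 106 promoters of members that rose without H2O2 and in 22.9% of the 35 of members that fell. Whether motif and direction go together was not tested. The 250 bases before the RefSeq start of ZNF765, ZNF267 and ZNF428 are printed because these members had the 2 highest and the lowest log2 fold changes without H2O2. RefSeq starts differ from the GENCODE gene bounds given above: the stretch of ZNF765 lies inside its GENCODE gene, that of ZNF428 almost wholly so, and that of ZNF267 reaches into it. Capitals mark GGGCGG or CCGGAAG on either strand, with adjacent or overlapping matches run together. The stretch of ZNF765 lies at chr19:53394899-53395148 on the plus strand, ZNF267 at chr16:31873557-31873806 on the plus strand and ZNF428 at chr19:43619630-43619879 on the minus strand.
ZNF765: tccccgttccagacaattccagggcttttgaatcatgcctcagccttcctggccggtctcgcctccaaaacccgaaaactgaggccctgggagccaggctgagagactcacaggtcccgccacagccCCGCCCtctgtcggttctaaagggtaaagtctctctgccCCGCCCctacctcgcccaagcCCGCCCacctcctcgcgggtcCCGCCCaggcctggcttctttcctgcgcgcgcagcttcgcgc
ZNF267: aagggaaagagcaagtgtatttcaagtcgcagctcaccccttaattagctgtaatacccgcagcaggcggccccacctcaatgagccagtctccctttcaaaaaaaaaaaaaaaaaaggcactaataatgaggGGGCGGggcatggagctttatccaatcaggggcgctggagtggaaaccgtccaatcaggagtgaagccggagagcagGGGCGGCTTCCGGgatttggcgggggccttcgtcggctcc
ZNF428: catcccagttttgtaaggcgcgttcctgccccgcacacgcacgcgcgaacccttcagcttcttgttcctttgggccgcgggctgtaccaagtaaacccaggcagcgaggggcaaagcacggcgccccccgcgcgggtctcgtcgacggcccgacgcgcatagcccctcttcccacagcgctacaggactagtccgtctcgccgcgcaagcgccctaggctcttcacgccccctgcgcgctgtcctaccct
ZNF765 holds 4 matches to GGGCGG and none to CCGGAAG, ZNF267 holds 2 and 1, and ZNF428 holds neither. The 3 stretches contain 18, 12 and 30 CpG dinucleotides. A match describes these letters and is not a bound site.

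The H2O2 comparisons asked how the members differ after the oxidant, and fewer members passed the test. With control siRNA 20 members rose (8%) and 37 fell (14.8%), against 17.8% and 17.4% of all genes tested (35.3% in either direction), with a median of -0.05. Changes of at least 1.5-fold were made by 2 members upward and 1 downward, where 4.59% and 4.43% of all genes tested changed that much. Of the KRAB members 7 rose and 18 fell. These counts depend on 2 libraries: without siNC 1 and siNC.H2O2 7, 31 members rose (12.4%) and 32 fell (12.8%), among them 14 and 12 KRAB members. Over all genes tested 19.5% rose and 17.4% fell in that fit. Without siNC.H2O2 8 alone, 12 members rose (4.8%) and 9 KRAB members fell (6.38%), against 14.2% and 12.9% of all genes tested. The count of KRAB falls was 12 without siNC 1 (8.51%, against 17%) and 11 without siNC 3 (7.8%, against 14%). On log2(FPKM + 1), from the values the authors normalised, 12 members rose (4.8%) and 62 fell (24.8%), against 12.7% and 25.8% of 12208 genes.

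ZNF93, a KRAB gene known to silence a group of L1 retrotransposons, made the largest rise with H2O2 and control siRNA. With control siRNA it had 3.96, 5.05 and 5.57 CPM in siNC and 7.11, 9.12 and 7.42 CPM in siNC.H2O2. With EP300 siRNA it had 6.55, 7.76 and 7.79 CPM in siEP300 and 12.0, 10.3 and 9.87 CPM in siEP300.H2O2. The groups with and without H2O2 did not overlap under either siRNA (log2 fold change 0.69, SE 0.14, adjusted p = 0.00187 with control siRNA, and log2 fold change 0.54, SE 0.13, adjusted p = 0.00599 with EP300 siRNA). ZNF697, without a KRAB box, had 16.3, 14.5 and 16.1 CPM in siNC and 22.3, 23.5 and 24.8 CPM in siNC.H2O2 (log2 fold change 0.59, SE 0.07, adjusted p = 2.03e-05). ZNF703 and ZNF503, related repressors of the NET family, rose by 0.44 (adjusted p = 0.00093) and 0.38 (adjusted p = 0.000761). Further rises with control siRNA were those of ZNF277 (0.44), ZNF319 (0.43) and the KRAB gene ZNF777 (0.42), with adjusted p of 0.000512, 0.00173 and 0.00402.

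The largest fall with H2O2 and control siRNA was that of ZNF589, a KRAB gene with 4 fingers. It had 8.39, 7.08 and 9.75 CPM in siNC, 5.87, 5.47 and 4.88 in siNC.H2O2, 15.6, 16.8 and 15.2 in siEP300 and 13.4, 14.1 and 13.6 in siEP300.H2O2. The fall passed with control siRNA (log2 fold change -0.64, SE 0.12, adjusted p = 0.000909) and did not with EP300 siRNA (-0.21, adjusted p = 0.126), but the difference between the 2 was not called (adjusted p = 0.169). ZNF300, also a KRAB gene, changed by -0.55 (adjusted p = 0.000148) and ZNF76, an activator related to ZNF143, by -0.53 (adjusted p = 5e-05). ZNF618 changed by -0.48, and without siNC 1 and siNC.H2O2 7 this was -0.24. ZNF618 has a mean under 2 FPKM in the control siRNA libraries and passed the line only through the EP300 siRNA groups, so its values are a description. ZNF18 changed by -0.47 (adjusted p = 0.0045). ZNF524 changed by -0.53 (adjusted p = 0.0167), a call lost without siNC 3 (adjusted p = 0.0698), siNC.H2O2 8 (0.0511) or siNC.H2O2 9 (0.075).

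With EP300 siRNA, H2O2 was followed by 38 higher members (15.2%) and 18 lower (7.2%), against 15.9% and 15.1% of all genes tested (31.1% in either direction). At least 1.5-fold changes were 3 upward and 2 downward, where 3.42% and 4.19% of all genes tested changed that much. Of the KRAB members 15 rose and 2 fell. Without siNC 1 and siNC.H2O2 7, 48 members rose (19.2%) and 26 fell (10.4%), against 19.9% and 19.8% of all genes tested, among them 21 and 6 KRAB members. Without siEP300.H2O2 11, 11 members fell (4.4%) and 9 KRAB members rose (6.38%), against 10.8% and 11.9% of all genes tested. Members that fell numbered 11 (4.4%) without siEP300 5 and 10 (4%) without siEP300.H2O2 12, against 11.5% of all genes tested in each. The 2 KRAB falls became 0 without siEP300.H2O2 11 or 12, 1 without siEP300 4 or 5, 4 without siNC 1 and 5 without siEP300.H2O2 10. ZNF670, a KRAB gene, led with 8.63, 8.33 and 9.21 CPM in siEP300 and 13.6, 16.2 and 13.2 CPM in siEP300.H2O2 (log2 fold change 0.72, SE 0.11, adjusted p = 0.00018). ZNF777 (0.68, adjusted p = 0.000103), ZNF697 (0.58, adjusted p = 2.79e-05) and ZNF503 (0.56, adjusted p = 5.94e-05) followed with ZNF428 and ZNF74, described below. Falls were led by ZNF395, by ZNF449 (-0.67, adjusted p = 0.000951), by ZNF18 (-0.49, adjusted p = 0.00186) and by ZNF488 and ZNF22 (-0.47 and -0.41, adjusted p = 0.00688 and 0.000194). ZNF618 changed by -0.53, again as a description because its mean is under 2 FPKM in the control siRNA libraries. The H2O2 comparisons share no library with each other. Across members their log2 fold changes had a Spearman correlation of 0.64 (0.68 over all genes tested), 16 members rose in both, 11 fell in both and none was called in opposite directions.

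Whether the EP300 siRNA effect differed between the H2O2 states was tested as an interaction. It was called in 3 members, all positive, against 1.12% of all genes tested with a positive and 2.21% with a negative difference (3.33% in all). At an unadjusted p under 0.05 there were 36 positive (14.4%) and 5 negative (2%) members, against 7.64% and 9.22% of all genes tested, and the members' median difference was 0.10 against -0.0008 over all genes tested. Without siNC 1 and siNC.H2O2 7 the interaction was called in 10 members upward (4%) and 8 downward (3.2%), against 5.79% and 9.28% of all genes tested. Without siNC.H2O2 7 alone it was called in 5 upward (2%) and none downward, against 1.88% and 3.45% of all genes tested. ZNF74 had 16.5, 17.7 and 16.7 CPM in siNC, 8.19, 8.90 and 7.74 in siEP300, 17.1, 15.3 and 15.7 in siNC.H2O2 and 11.6, 11.9 and 12.7 in siEP300.H2O2. It was lower in both EP300 siRNA groups, and the fall was smaller with H2O2 (-1.03 without and -0.41 with, a difference of 0.62, SE 0.12, adjusted p = 0.00935). ZNF428 showed the same order (-2.43 without and -1.67 with, a difference of 0.75, adjusted p = 0.0327), but its call was lost when any of 9 libraries was left out (adjusted p up to 0.0941). ZNF232, a SCAN gene, had 11.4, 10.1 and 12.5 CPM in siNC and 14.1, 14.1 and 13.6 in siEP300, and 8.57, 7.80 and 8.56 in siNC.H2O2 and 16.3, 15.1 and 16.3 in siEP300.H2O2. Its rise was larger with H2O2 (0.94) than without (0.30), a difference of 0.64 (SE 0.13, adjusted p = 0.012). ZNF232 overlaps USP6 on the opposite strand.

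Members with other known roles went both ways. Of 10 members that act on RNA, ribosomes or the spindle, 4 rose (40%) and 4 fell (40%) with EP300 siRNA without H2O2. Over all genes tested 30.1% rose and 31.4% fell. Without siNC 2 the rises of ZNF326 and ZNF346 and the fall of ZNF830 were lost (adjusted p = 0.108, 0.112 and 0.0693), and the rise of ZNF207 turned to -0.13 (adjusted p = 0.0362) with GC and length offsets. ZNF593 had 24.0, 30.5 and 28.9 CPM in siNC and 18.9, 17.1 and 17.6 CPM in siEP300, with no overlap (log2 fold change -0.64, SE 0.13, adjusted p = 0.000645); with H2O2 it changed by -0.43 (adjusted p = 0.0089), a call lost without siNC.H2O2 7 (adjusted p = 0.0572). ZNF622 had 38.2, 45.2 and 44.5 CPM in siNC and 57.7, 53.8 and 50.3 CPM in siNC.H2O2 and rose with H2O2 under both siRNAs (0.34, adjusted p = 0.00431, and 0.50, adjusted p = 0.000252). ZNF598, a ubiquitin ligase at collided ribosomes, also rose with H2O2 under both (0.32, adjusted p = 0.00152, and 0.26, adjusted p = 0.00846). The RNA-binding genes ZNF106 and ZNF638 changed in opposite directions with EP300 siRNA without H2O2 (0.36, adjusted p = 0.00109, and -0.26, adjusted p = 0.00108).

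Of 8 members known as partners of chromatin cofactors, 2 rose (25%) and 2 fell (25%) without H2O2, against 30.1% and 31.4% of all genes tested. ZNF592 and ZNF827, which recruits the NuRD complex, rose by 0.36 and 0.34 (adjusted p = 0.000325 and 0.00991); the call of ZNF827 was lost on log2(FPKM + 1) (0.22, adjusted p = 0.0545). ZNF532 and ZNF512 changed by -0.43 and -0.20 (adjusted p = 0.00143 and 0.00895). Of 10 sequence-specific regulators 2 rose (20%) and 3 fell (30%), against the same shares of all genes tested. The rise of ZNF746 was lost on log2(FPKM + 1) (adjusted p = 0.0774), and ZNF703 became 0.01 (adjusted p = 0.88) with GC and length offsets. ZNF281 made the larger rise, from 40.4, 30.3 and 34.4 CPM in siNC to 70.2, 61.8 and 66.6 CPM in siEP300, with no overlap (log2 fold change 0.92, SE 0.11, adjusted p = 3.83e-06). ZNF410, an activator of the NuRD subunit gene CHD4, had a log2 fold change of 0.15 that missed the threshold without H2O2 (adjusted p = 0.0512) and rose by 0.20 with it (adjusted p = 0.0154). That call was lost without siNC.H2O2 9 (adjusted p = 0.0621) or siEP300.H2O2 11 (0.0535). The SUMO ligase gene ZNF451 rose by 0.47 and 0.41 (adjusted p = 2.37e-05 and 9.3e-05), and the LIM domain gene ZNF185 by 0.73 and 1.001 (adjusted p = 3.34e-06 and 1.81e-07).

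Of 6 expressed KRAB genes with known targets, 3 (50%) rose with EP300 siRNA in each H2O2 state and none fell. Over all genes tested 30.1% rose and 31.4% fell without H2O2, and 28.4% and 30.6% with it. ZNF274, which binds the ends of other ZNF genes and recruits SETDB1 there, had 42.3, 42.6 and 41.3 CPM in siNC and 52.04, 51.0 and 53.2 CPM in siEP300. With H2O2 it had 46.6, 48.0 and 44.3 CPM in siNC.H2O2, against 62.3, 66.1 and 63.0 CPM in siEP300.H2O2. The siRNA groups did not overlap (log2 fold change 0.31, SE 0.06, adjusted p = 0.000201 without H2O2, and log2 fold change 0.46, SE 0.05, adjusted p = 4.09e-06 with it). ZNF93 and ZNF202 rose by 0.60 and 0.30 without H2O2 (adjusted p = 0.00232 and 0.025), and the call of ZNF202 was lost without siNC 2 (adjusted p = 0.115) or siEP300 5 (0.0779). ZNF445, which maintains imprints, ZNF263 and ZNF350 had log2 fold changes of -0.05, -0.02 and 0.14 without H2O2 and were not called (adjusted p = 0.657, 0.832 and 0.474).

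The silencing machinery that KRAB proteins call on was examined as a list of 20 genes, and its members went both ways. Without H2O2, 5 rose (25%) and 7 fell (35%), against 30.1% and 31.4% of all genes tested. With H2O2 9 rose (45%) and 7 fell (35%), against 28.4% and 30.6%. TRIM28, the KRAB scaffold, had 559, 622 and 621 CPM in siNC and 387, 373 and 405 CPM in siEP300, with no overlap (log2 fold change -0.63, SE 0.08, adjusted p = 7.77e-06). With H2O2 it changed by -0.41 (adjusted p = 0.000422), which became -0.10 (adjusted p = 0.105) with GC and length offsets. CBX5, a heterochromatin protein, fell further, to 43.1% without H2O2 (log2 fold change -1.22, SE 0.10, adjusted p = 7.96e-08) and 45.7% with it (adjusted p = 1.77e-07). SETDB1 changed by -0.26 and -0.29 (adjusted p = 0.00267 and 0.00139), and UHRF1, a reader of hemimethylated DNA, by -0.80 and -0.58 (adjusted p = 4.16e-09 and 1.34e-07). HDAC1 and the SETDB1 partner ATF7IP rose, by 0.89 and 0.92 without H2O2 (adjusted p = 2.72e-08 and 1.82e-05) and by 1.27 and 0.44 with it (adjusted p = 7.79e-10 and 0.00781). With H2O2 and control siRNA 1 of the 20 rose and 6 fell, against 17.8% and 17.4% of all genes tested, and the 1 became 2 without siNC 1 or siNC 2. With H2O2 and EP300 siRNA 4 rose and 1 fell, against 15.9% and 15.1%. The 4 became 2 without siEP300 6 or siEP300.H2O2 12, and the 1 became 2 without siNC 1, siNC 2, siNC.H2O2 7, siNC.H2O2 9 or siEP300.H2O2 10.

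Zinc finger genes under other names were counted at the same level of 2 FPKM, beside 30.1% higher and 31.4% lower of all genes tested without H2O2. Of 14 ZNF symbols with a letter 7 rose and 5 fell with EP300 siRNA without H2O2, of 8 ZFP symbols 5 and 2, of 12 ZSCAN symbols 6 and 0, of 5 ZKSCAN symbols 4 and 0, and of 32 ZBTB symbols 12 and 9. ZBTB proteins pair C2H2 fingers with a BTB domain in place of a KRAB box. Among the names other than ZBTB, 6 of 12 with a KRAB box rose and 4 fell, and 16 of 27 without it rose and 3 fell without H2O2.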

How the data were processed

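RNA of 12 AC16 libraries in 4 groups of 3 was measured by sequencing. The authors deposited estimated (expected) counts per gene and library, and FPKM values normalised by the authors for transcript length and depth, per the file headers. The submitters' processing notes name HISAT, Bowtie2 and GRCh38.p13. The counting tool, its handling of strand and of reads shared between genes, and the annotation release were all not given in the sources used here. Of the deposited estimated counts, 12% to 13.8% per library were not whole (tolerance 1e-06) and were rounded.

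Counts were tested with edgeR 4.0.16 (R 4.3.3): TMM factors (0.969 to 1.05), the default filter on low counts, 1 quasi-likelihood fit over all 12 libraries, and Benjamini-Hochberg adjustment over the 13171 genes tested. A gene was called at an adjusted p under 0.05, and "rose" and "fell" are used of called genes only, relative to the TMM scaling. Each SE is that of the fitted log2 fold change. The biological coefficient of variation was 6.72%. The number of libraries (3 per group) limits the precision, and library totals are given with the report. Alternatives were RLE factors, no count filter, DESeq2 1.42.0, limma 3.58.1 on log2(FPKM + 1) and log2(FPKM + 0.1) with a mean FPKM filter of 0.5, only the 6 libraries of a comparison, offsets for GC and length fitted with mgcv 1.9.3, member rules of 1 or 5 FPKM, and leaving out each library. Leaving out siNC 1 and siNC.H2O2 7 together, counting KRAB members apart, and drawing the FPKM line on the control siRNA libraries were added after the data were seen.

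KRAB and SCAN boxes and fingers came from translated GENCODE release 29 transcripts, in place of RefSeq proteins, which were not used here. Members, lists and tests were chosen with earlier results of these data known. Genes were named by a rule: the 5 highest levels, 3 genes on each side of the FPKM line, up to 6 rises and 6 falls per comparison among called members whose groups did not overlap, up to 4 interactions per direction, the members of the role lists, and 6 corepressors. Reads of near-identical copies, overlapping genes and antisense genes may be shared.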

Additional observations from a re-analysis of the deposited data

Results flagged for a closer look

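In 3 members the effect of EP300 siRNA differed between the cells with and without H2O2, by the interaction test of edgeR. The difference (effect with H2O2 minus effect without) was 0.752 on the log2 scale for ZNF428 (SE 0.18, adjusted p = 0.0327), whose fall was smaller with H2O2; this call was lost in 9 of 12 fits that left out 1 library (adjusted p of 0.0514 to 0.0941). It was 0.637 for the SCAN gene ZNF232 (SE 0.13, adjusted p = 0.012), whose rise was larger with H2O2. It was 0.624 for the KRAB gene ZNF74 (SE 0.12, adjusted p = 0.00935), whose fall was smaller with H2O2. ZNF428 and ZNF232 each overlap another gene on the opposite strand (SRRM5 and USP6), and the part of shared reads was not tested.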

How the results depend on the processing

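No paired analysis was possible because the replicate numbers run from 1 to 12 and no number is shared between groups. No count of members or KRAB members called with EP300 siRNA moved by over 1.5 times under any alternative run except that leaving out siEP300.H2O2 11 moved 1, the lower KRAB members with H2O2. Of 140 pairs of a named gene and a comparison, 99 kept direction and call in every alternative. The cause of the changes below was not tested.

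Shares called are percentages of the list. With H2O2 and control siRNA, higher members became 5.2% with only the 6 libraries, 12.4% without siNC 1 and siNC.H2O2 7, and 4.8% on log2(FPKM + 1) and log2(FPKM + 0.1), and lower members 24.8% and 26% on these FPKM scales. Higher KRAB members became 2.84% (6 libraries and both FPKM scales) and 9.93% (without the 2 libraries), and lower ones 7.8% (6 libraries), 8.51% (without the 2), 21.3% and 22.7% (FPKM scales). Higher corepressors became 10% (without the 2) and 15% (GC and length offsets). Over all genes tested 13.9% rose and 12.6% fell with only the 6 libraries, and 19.5% and 17.4% without the 2. These shares were 12.7% and 25.8% on log2(FPKM + 1), and 23.3% and 22.5% under the offsets. With H2O2 and EP300 siRNA, higher members became 26% under the offsets, where 22.6% of all genes tested rose and 19.9% fell. Over all genes tested 20.5% rose and 20.2% fell with only the 6 libraries, and 19.9% and 19.8% without the 2. Higher KRAB members became 16.3% (6 libraries) and 22% (offsets), and lower ones 4.26% (6 libraries, and without the 2) and 3.55% (offsets). Lower corepressors became 10% (no count filter, DESeq2), 20% (6 libraries, without the 2, offsets) and 15% (both FPKM scales). Interactions called higher became 4% (without the 2, and offsets), 2.8% and 2.4% (FPKM scales), and lower 3.2% (without the 2), 1.2% (offsets) and 0.4% (DESeq2). Over all genes tested the interaction shares were 5.79% higher and 9.28% lower without the 2, and 3.55% and 5.43% under the offsets.

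Leaving out 1 library gave these ranges for EP300 siRNA without H2O2, EP300 siRNA with H2O2, H2O2 with control siRNA and H2O2 with EP300 siRNA, in that order. Higher members were 42.4% to 51.2%, 50% to 55.6%, 4.8% to 8.4% and 10.4% to 17.2%, and lower members 13.6% to 17.6%, 12.8% to 15.6%, 10% to 14.8% and 4% to 8.4%. Higher KRAB members were 56% to 65.2%, 62.4% to 70.2%, 2.84% to 5.67% and 6.38% to 12.8%, and lower ones 3.55% to 5.67%, 2.13% to 4.96%, 6.38% to 12.8% and 0% to 3.55%. Higher corepressors were 25% to 30%, 40% to 50%, 5% to 10% and 10% to 20%, and lower ones 35% to 35%, 35% to 35%, 20% to 30% and 5% to 10%. Interactions were 0.8% to 2% higher and 0% to 0.4% lower.

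GC and length offsets reversed 6 values. With EP300 siRNA without H2O2, ZNF148 became -0.0997, ZNF207 -0.125, ZNF326 -0.1093, ZNF598 0.3745 and ZNF703 0.0149, and with H2O2 ZNF598 became 0.2542. Low counts limit members near 2 FPKM.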
